A study of Mus musculus with 6 samples.

Results

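miR-342-3p (entry mmu-miR-342-3p) and miR-652 (entry mmu-miR-652), both encoded within protein-coding genes, are described here in mouse oocytes of different sizes and ages. They are 2 of the 577 microRNA entries on the array, found by their exact names, and were selected on their higher signal in large than in small oocytes of young mice on these same arrays. Their values in that contrast are therefore a description, with no test. Total RNA of pooled C57BL/6 oocytes was hybridised to 6 one-colour Agilent arrays annotated against miRBase 10.1, in 3 groups of 2 arrays. Young large oocytes measured 60 to 80 µm across and came from mice of 6 to 8 weeks. Young small oocytes measured 20 to 50 µm, came from mice of the same age and are placed by 1 label in primordial follicles. Aged large oocytes measured 60 to 80 µm and came from mice of 41 to 43 weeks (42 to 44 weeks in the sample descriptions). No group carries a genetic change or a treatment. No label names separate animals or pools behind the duplicates, so p-values reflect the spread of these arrays alone, which may be technical. Because oocytes were pooled, fewer cells and less RNA per cell cannot be told apart.

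Many microRNAs lie within protein-coding genes, where the hairpin is cut from the host transcript by Drosha, trimmed by Dicer, and leaves a mature strand that finds its targets mainly through the seed, bases 2 to 8. Such a microRNA can follow the transcription of its host, and can also depart from it through processing, stability or a promoter of its own. In mouse oocytes the microRNA pathway is known to be weakly active, and loss of Dicer acts largely through endogenous small interfering RNAs. miR-342 lies within Evl, which encodes an actin regulator of the Ena/VASP family, and miR-652 lies within Tmem164, which encodes a membrane protein. In the RefSeq tables of GRCm38.p6 both hairpins fall inside the span of these genes on the same strand. The host messenger RNAs were not measured on these arrays.

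The sequences are shown to set both strands of each hairpin side by side; the -3p strands of the pair share no seed. The mature strands, from RefSeq (GRCm38.p6, plus strand), are given with the seed in capitals, and each hairpin with its -3p strand in capitals.
miR-342-3p, chr12:108658680-108658702: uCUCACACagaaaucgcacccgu
miR-342-5p, chr12:108658638-108658659: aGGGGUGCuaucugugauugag
miR-652-3p, chrX:142739060-142739080: aAUGGCGCcacuaggguugug
miR-652-5p, chrX:142739020-142739043: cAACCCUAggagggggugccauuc
Mir342 hairpin, chr12:108658620-108658718: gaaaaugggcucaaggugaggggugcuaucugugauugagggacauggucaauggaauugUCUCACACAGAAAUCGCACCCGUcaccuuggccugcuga
Mir652 hairpin, chrX:142739000-142739097: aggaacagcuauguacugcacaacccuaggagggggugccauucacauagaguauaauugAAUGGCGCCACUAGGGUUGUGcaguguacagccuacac
The array entry miR-652 carries no arm name. That name was long used for the strand now called miR-652-3p, which is taken as background and not from the files. Both -3p strands begin at base 61 of their hairpin. miR-342-3p is 23 bases long with 12 G or C, and miR-652-3p is 21 bases long with 12 G or C. Their longest shared run is 3 bases. Among 1679 mature mouse names in the RefSeq table, 0 others have the seed of miR-342-3p and 0 others that of miR-652-3p. Array entries whose names are not among these were not searched for either seed.

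Arrays differed in brightness, which bears on every value that follows. The median deposited signal of the 56 microRNAs detected on all 6 arrays was 13.77 to 13.96 in young small, 21.5 to 22.8 in aged large and 35.8 to 42.2 in young large oocytes. Between 57 and 102 entries per array were called detected. Deposited signals were divided by an array factor of 0.582 to 1.94, taken from the 75th percentile of those 56, and the result is called the scaled signal. For tests, scaled signals under 6.17, a floor set by the lowest detected signals, were raised to it. Both members lay above that floor on all 6 arrays.

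miR-652 stood at the detection limit in small oocytes and was higher in large ones. Its deposited signal was 4.49 and 4.01 in young small oocytes, 15.5 and 17.2 in aged large ones and 26.6 and 21.1 in young large ones. The small oocytes were lowest and no groups overlapped. The software's own error of these signals was 1.53 and 1.43 in small oocytes, and 1.97 to 2.64 on the 4 large arrays. The signal was thus 2.93 and 2.81 times its error in small oocytes and 7.56 to 10.1 times in large ones, although all 6 arrays called it detected.

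After scaling, miR-652 read 7.25 ± 0.637 in young small, 13.9 ± 0.374 in young large and 16.3 ± 0.0073 in aged large samples (SD, n = 2 arrays per group). The order of the large groups turned: young large was highest as deposited, and aged large was highest once scaled. The young large mean was 5.58-fold that of small oocytes as deposited and 1.93-fold after scaling, a log2 difference of 0.95. The deposited errors alone give that difference an error of 0.37 log2 units, most of it from the small arrays.

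miR-342-3p was lowest in small oocytes as well. Its difference to young large ones was smaller in value than that of miR-652, but not beyond the deposited errors. Its deposited signal was 4.18 and 4.43 in young small oocytes, 14.4 and 15.8 in aged large and 20.1 and 15.7 in young large ones. Neither small array called it detected, while all 4 large arrays did, and the large groups overlapped as deposited. The signal in small oocytes was 2.76 and 3.08 times its error, next to the 2.93 and 2.81 of miR-652, which was called detected. In small oocytes the members thus differed in the call, while their signals lay within each other's error. On young large array 2, 80% of the spots of miR-342-3p were kept as inliers (an inlier fraction of 0.8), against 0.95 to 1 on the other arrays.

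Scaled, miR-342-3p read 7.35 ± 0.248 in young small, 10.4 ± 0.161 in young large and 15.0 ± 0.118 in aged large samples (SD, n = 2 arrays per group). These groups did not overlap. The young large mean was 4.12-fold that of small oocytes as deposited. After scaling it was 1.42-fold, a log2 difference of 0.51 with an error of 0.37 from the deposited errors alone. No small array detected it, so this ratio is an estimate from uncalled signals and not a lower bound. Its scaled signals in small oocytes, 7.17 and 7.52, lay above the lowest detected scaled signals of those arrays, 5.76 and 6.17.

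**Figure D1:**
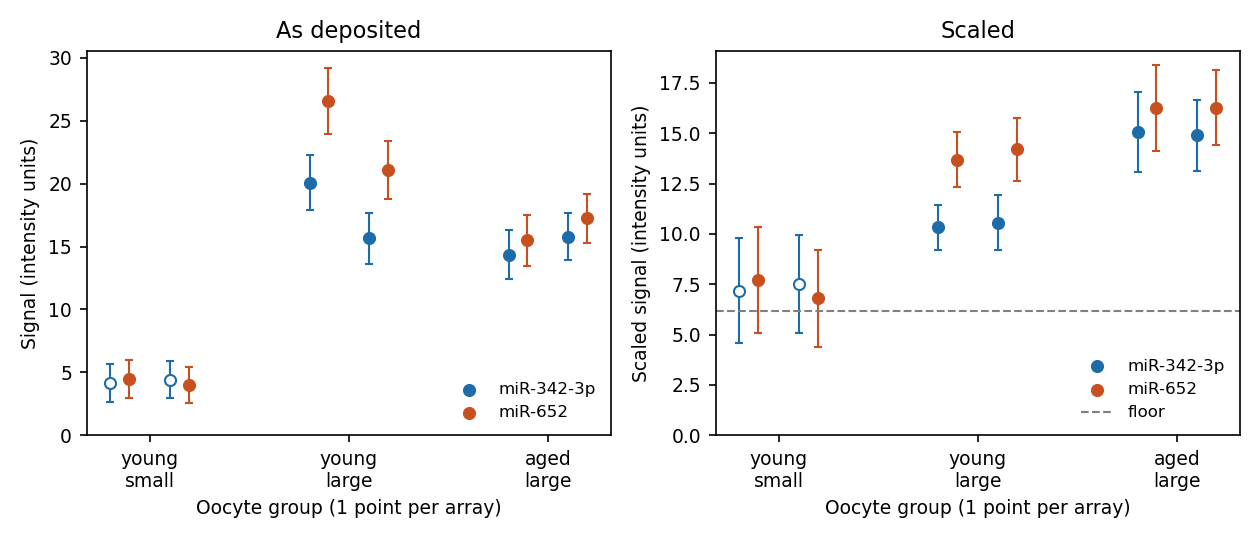
Signal of miR-342-3p and miR-652 on each array, as deposited (left) and after scaling (right), in intensity units on linear axes; bars are the deposited error, open points were not called detected, and the dashed line is the floor of 6.17. As deposited the young large arrays are brightest, up to 26.6; after scaling the aged large arrays are, with 14.9 to 16.3.

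Set beside the 56 microRNAs detected everywhere, both members lay near the upper end of the growth contrast, whatever the scaling factor. Those 56 leave out every microRNA not detected on both small arrays. That includes miR-342-3p itself, which is thus set beside entries unlike it in detection. The deposited log2 difference between young large and young small oocytes had a median of 1.27 over those 56, with a range of 0.32 to 3.29. It was 2.48 for miR-652, with 3 of the 56 above it, and 2.04 for miR-342-3p, with 4 of the 56 above it. The excess over the median was 1.21 and 0.77. In the 4 pairings of a young large with a young small array the excess ran from 1.04 to 1.33 for miR-652 and from 0.58 to 0.86 for miR-342-3p. No single array set the direction for either one. Because the members were picked on this contrast, their place and direction in it are description only.

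In the fit across the arrays (limma, Benjamini-Hochberg adjustment), 35 of 94 tested microRNAs, 37.2%, differed between young large and young small oocytes, 17 higher and 18 lower, and 64.9% had groups that did not overlap. The 94 include 15 at the floor on every array, which lowers these shares. With only microRNAs above the floor on at least 1 array, 39 of 79 passed. The members are counted among the 94 but are given no call, because the contrast chose them. Their rank by log2 difference was 6 for miR-652 and 11 for miR-342-3p of 94. The split of 17 higher to 18 lower depended on the scaling: it was 84 to 0 if unscaled, 26 to 1 under total-signal scaling, 17 to 0 under the percentile of every entry, 21 to 2 under the control entries named hur, 19 to 11 under quantile normalization, and 18 to 4 in the deposited series table. The median shift of the log2 differences under those settings was 1.53, 0.43, 0.50, 0.29, 0 and 0.34. Under the 7 scalings compared, the growth difference stayed positive for both members, at 0.92 to 2.48 for miR-652 and 0.44 to 2.04 for miR-342-3p. The deposited series table, which holds both members at 0 in small oocytes, gave 0.0042 and 0 after flooring.

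**Figure D2:**
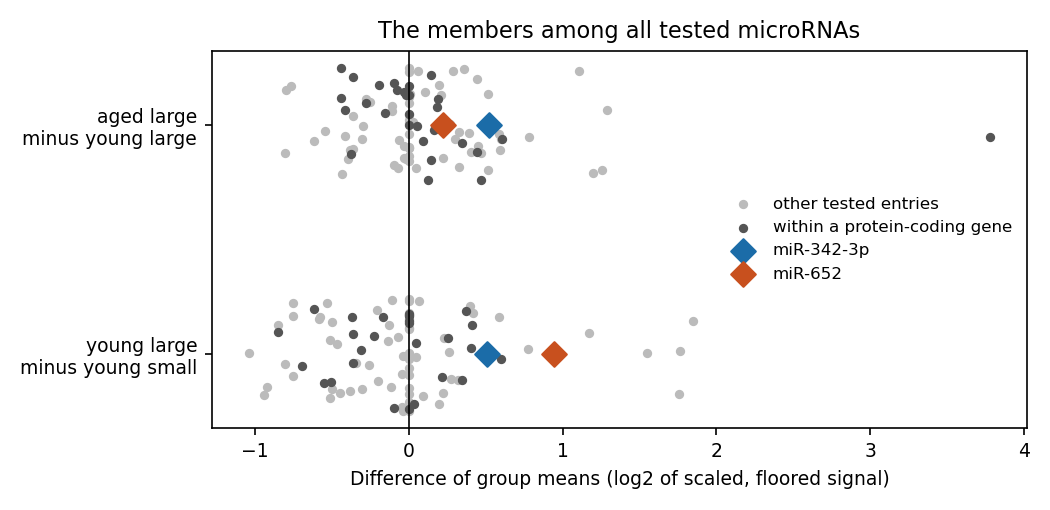
Log2 difference of group means for every tested microRNA (grey points, dark where the entry lies within a protein-coding gene; vertical scatter has no meaning) and for the members (diamonds). For young large minus young small (94 tested) the members sit at 0.51 and 0.95; for aged large minus young large (97 tested) at 0.52 and 0.22.

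Large oocytes were then compared by the age of the mice, the study's contrast for reproductive ageing. The members were picked for growth and not for this contrast, but it shares the young large arrays with the growth contrast. They were also chosen with earlier results of these data known. miR-342-3p rose: the scaled signal was 15.1 and 14.9 in large oocytes of aged mice against 10.3 and 10.6 in those of young mice, a log2 change of 0.52 ± 0.03 (SE; 95% interval 0.43 to 0.61; limma, adjusted p = 0.00186). That is 1.43-fold, higher in 2 of 2 aged arrays. It was 1 of 14 microRNAs that passed as higher, 14.4% of 97 tested; 15 passed as lower, which makes 29.9% in all. miR-652 read 16.2 and 16.3 in aged mice against 13.7 and 14.2 in young ones. Its log2 difference of 0.22 ± 0.07 (SE; 95% interval 0.01 to 0.43; limma, adjusted p = 0.106) did not pass, although the groups did not overlap, as in 60.8% of tested microRNAs. The 97 include 16 at the floor on every array, whose groups cannot be apart, which lowers these shares. With only microRNAs above the floor on at least 1 array, 38 of 81 passed.

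The call for miR-342-3p rested on the scaling. As deposited, its signal was 0.849-fold in aged relative to young large oocytes, a log2 difference of -0.24. The other scalings gave 0.10 with the total signal, 0.13 with hur entries, 0.29 with quantile normalization, 0.35 with the percentile of every entry and 0.58 with the median, and the last was the 1 other that passed (limma, adjusted p = 0.0126; range over all alternatives 0.00163 to 0.481). For miR-652 the difference was positive under 3 of 7 scalings, from -0.53 without scaling, which passed as lower (limma, adjusted p = 0.0386; range over all alternatives 0.0278 to 0.999), to 0.28 with the median. The median shift of the log2 differences of all tested microRNAs was -0.76 if unscaled and -0.42 under total-signal scaling. It was -0.39 under hur scaling and -0.17 under the percentile of every entry. The split of 14 higher to 15 lower became 3 to 55 if unscaled, 4 to 25 under total-signal scaling, 5 to 18 under hur scaling and 8 to 15 under quantile normalization.

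**Figure D3:**
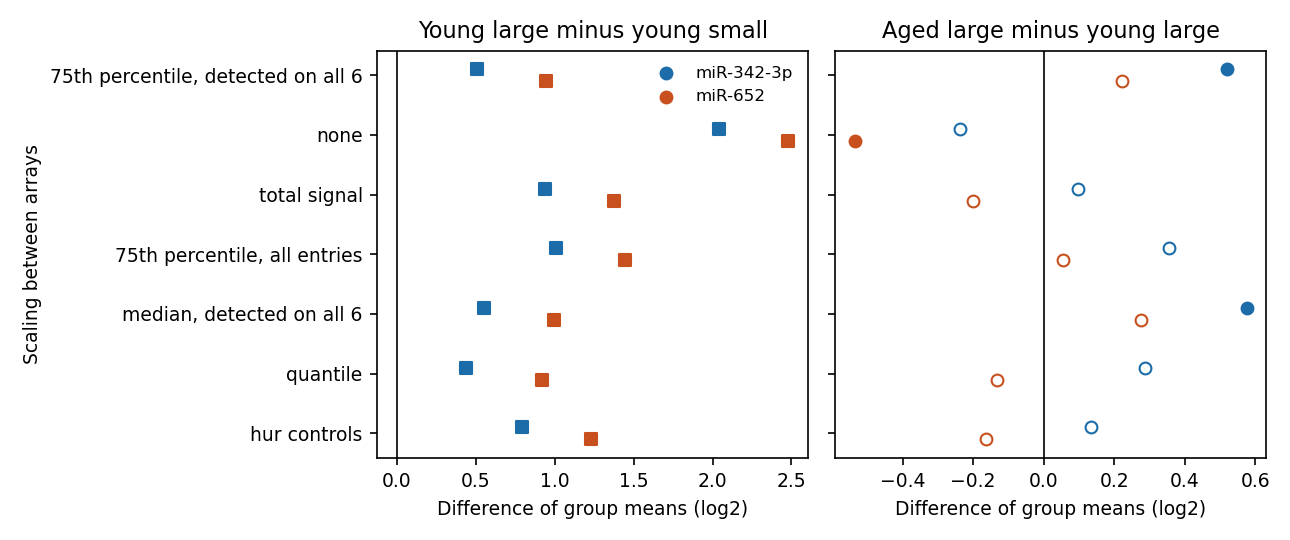
Log2 difference of group means of miR-342-3p and miR-652 under 7 scalings, for young large minus young small (left, no test) and aged large minus young large (right; filled points passed an adjusted p of 0.05 in limma). All values on the left are above 0, while on the right they run from -0.53 to 0.58.

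The members were also set against the same 56 microRNAs. The excess takes the median of the 56 as its reference, itself a choice like that of a scaling. Only the count of the 56 that lay higher is free of that choice. Between young and aged large oocytes the median of the 56 was -0.60 on the log2 scale of deposited signal. miR-342-3p lay 0.36 above it, with 9 of the 56 higher, and by 0.31 to 0.58 in the 4 pairings of arrays. miR-652 lay 0.06 above it, with 22 of the 56 higher, and by 0.02 to 0.26 in the pairings. The fitted standard error of 0.03 for miR-342-3p reflects how closely duplicate arrays matched. The deposited errors alone give its ageing difference an error of 0.18, and that of miR-652 an error of 0.17.

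The log2 ratio of miR-652 to miR-342-3p within an array does not depend on scaling. It was 0.10 and -0.15 in small oocytes, 0.40 and 0.43 in large oocytes of young mice, and 0.11 and 0.13 in those of aged mice. The young large arrays were highest and did not overlap the aged ones. The difference between young and aged large oocytes was 0.30 with an error of 0.24 from the deposited errors (exact two-sided permutation test, p = 0.333, the smallest that 2 against 2 arrays can give). Against young small oocytes the difference was 0.44 with an error of 0.53, so unequal growth changes of the pair were not detectable at this signal.

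Aged large oocytes also stood above young small ones in both members. The members were chosen with earlier results of these arrays known, so this is description and no separate support. The scaled signal of miR-652 was 2.24-fold and that of miR-342-3p 2.04-fold that of small oocytes, where miR-342-3p was not called detected. As deposited the ratios were 3.85 and 3.50. The excess over the median of the 56 was 1.30 for miR-652 and 1.16 for miR-342-3p. Age and size both differ between these groups, the small arrays were used by the rule, and no test was made.

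The other strand of the Mir342 hairpin, miR-342-5p, was not called detected on any array. Its deposited signal ran from -0.57 to 0.56, with errors of 0.98 to 1.18. It lay within its own error of 0 on all 6 arrays, so no level or difference can be given for it. The array carries no second entry for Mir652.

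miR-223, known from myeloid cells, had the pattern most like that of miR-342-3p among 80 microRNAs compared over the 6 arrays (Pearson r = 0.98 of log2 scaled, floored signal). It was followed by miR-293 (0.96), miR-652 itself (0.93), miR-292-3p (0.93) and miR-483 (0.92). For miR-652 the order was miR-294 (0.99), miR-292-3p (0.98), miR-223 (0.98), miR-293 (0.98) and miR-107 (0.93), with miR-342-3p at rank 6. miR-292-3p, miR-293 and miR-294 belong to a cluster known from early embryos, and miR-107 lies within Pank1, a kinase gene of coenzyme A synthesis. These values describe 6 arrays in 3 groups that share scaling factors and brightness, and they mainly restate the group means. miR-483 shows how loose such likeness is: its scaled signal was 8.88 and 9.02 in large oocytes of young mice but 139 and 109 in those of aged mice.

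**Figure D4:**
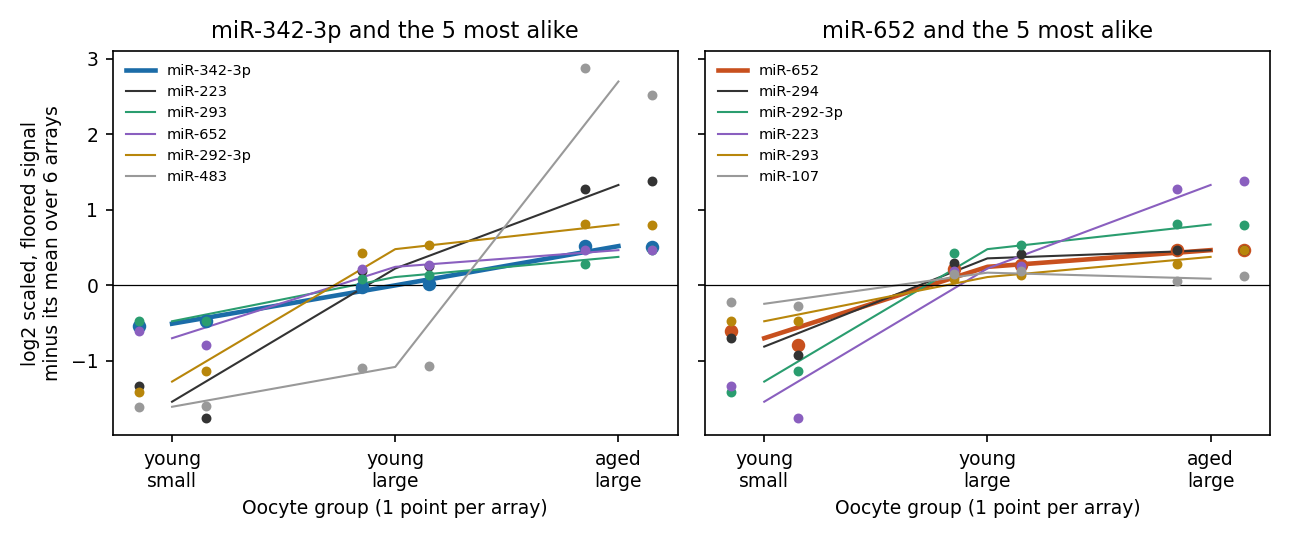
Log2 scaled and floored signal minus its mean over the 6 arrays, for each member (thick line) and the 5 microRNAs most alike; points are arrays and lines join group means. The young small arrays lie lowest for both members, and miR-223 and miR-483 climb further in aged large oocytes than the members do.

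miR-223 is also the 1 of 7 blood cell markers that was detected, so its values stand beside those of miR-342-3p. Its scaled signal was 8.30 and 5.61 in young small, 23.7 and 24.95 in young large and 50.5 and 54.3 in aged large samples. The other 6 blood markers, miR-142-3p, miR-150 and miR-451 among them, were not called detected on any array, with a highest deposited signal of 2.24. The summed deposited signal of the blood list was 5.79 to 6.39 in young small, 39.7 to 50.7 in young large and 50.1 to 61.2 in aged large samples. Of 7 markers of granulosa cells and the follicle, miR-21 and miR-212 had detected signal, and the list summed to 9.21 to 11.3, 28.6 to 39.0 and 20.9 to 25.03 in the same order. None of 5 stroma and smooth muscle markers or 2 endothelial strands was called detected, with highest signals of 5.32 and 1.18. The part of other cells in the member signals was not tested. All 6 entries of an early embryo and germ line list were detected, summing to 25.6 to 27.1, 193 to 235 and 133 to 144. The lists hold no microRNA specific to oocytes.

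Other microRNAs within genes were called in both directions, as were all tested entries. By the RefSeq annotation, 160 mouse entries have a locus inside a protein-coding gene on the same strand, and 35 of them were detected on at least 1 array. In the growth contrast 28 besides the members were tested: 5 were higher, 4 lower and 19 did not pass. The share called was 32.1%, beside 37.2% (17 higher, 18 lower) over all 94, so the count says nothing particular about microRNAs within genes. The median log2 difference was 0 in both. Entries at the floor on every array, 15 of the 94, give 0 by construction, so the equal medians are not read as likeness. miR-103 (hosts Pank2 and Pank3) and miR-107 (Pank1) rose by 0.41 each on the log2 scale (limma, adjusted p = 0.00396 and 0.00428). miR-140*, from the ubiquitin ligase gene Wwp2, was undetected in small oocytes and higher in large ones. It entered the test only because both young large arrays detected it, so its call is not read as support. Its scaled signal of 5.465 on young small array 1 was raised to the floor. Its ratio was 1.57-fold with each small array taken at no less than its lowest detected signal. miR-93, from the replication helicase gene Mcm7, miR-26b, from the phosphatase gene Ctdsp1, and miR-877*, a mirtron strand from Abcf1, had log2 changes of -0.69, -0.50 and -0.85 (limma, adjusted p = 0.00396, 0.00428 and 0.0132). 1 young large array of miR-877* lay under the floor. These 3 were negative under 6 of 7 scalings and positive without scaling (0.84, 1.03 and 0.47), while miR-103, miR-107 and miR-140* were positive under all 7.

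In the ageing contrast 30 besides the members were tested: 2 were higher, 4 lower and 24 did not pass. The share called was 20%, beside 29.9% (14 higher, 15 lower) over all 97, a difference that was not tested. The median was 0 in both, where 16 of the 97 lay at the floor on every array and give 0 by construction. miR-483, within the growth factor gene Igf2, rose by 3.78 and miR-671-5p, within Chpf2, by 0.60 on the log2 scale (limma, adjusted p = 0.000669 and 0.0300). miR-1224, from Vwa5b2, had 0.35 and did not pass (limma, adjusted p = 0.0582). miR-30e, from the transcription factor gene Nfyc, miR-26a, from Ctdspl and Ctdsp2, and miR-26b had log2 changes of -0.44, -0.36 and -0.28 (limma, adjusted p = 0.0233, 0.00597 and 0.0233). Under the 7 scalings miR-483 stayed positive and the 3 falls stayed negative, while miR-671-5p turned to -0.15 without scaling and miR-1224 was positive under 3.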

How the data were processed

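Cy3-labelled oocyte RNA was measured on 6 arrays, whose images went through Agilent Feature Extraction 9.5, as the submitters' processing notes state. Per the file headers, the authors' scanner files hold for each microRNA a background-subtracted intensity, its error, a detection call of 0 or 1 and the fraction of spots kept as inliers. Arrays were not normalized to each other. The deposited series table holds the same intensity values, linear and uncentred, with those under 10 replaced by 0 (0 of 577 entries departed from this). The 22 control entries and 1 unnamed row were left out of the tests, and 4 control entries named hur served only for hur scaling.

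Arrays were scaled to a common 75th percentile of the 56 microRNAs that every array detected, floored at 6.17 and put on the log2 scale. Tests took microRNAs detected on both arrays of either group compared. Group means over all 6 arrays were fitted in limma 3.58.1 under R 4.3.3 with lmFit and eBayes (two-sided, Benjamini-Hochberg, threshold 0.05, 3 residual degrees of freedom). Of 97 microRNAs in the ageing fit 16 were at the floor on every array, and the prior SD was 0.00743. The number of arrays limits the precision. The fit was run on simulated data, with planted changes larger than the members' ageing differences and no limit set on false calls.

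Hosts came from RefSeq tables (GRCm38.p6). Of 567 mouse entries 442 matched a locus, and 17492 of 21900 protein-coding genes had a strand, so the list is incomplete. The files name no genome build, and coordinates are those of the RefSeq sequence table. Named microRNAs were the members, the other strand of each hairpin, the 5 most alike, the 3 smallest p per direction among entries within genes, and detected markers. The members and lists were chosen with earlier results of these data known. Alternatives were other scalings, floors and filters, the series table, detection as 3 times the error, a trend or robust eBayes, 4 arrays only, a replicate block and each array left out. Figures were drawn with matplotlib 3.10.9.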

Additional observations from a re-analysis of the deposited data

Results flagged for a closer look

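Signals outside the tests came from 6 control entries detected on all 6 arrays, of which the 4 named hur also set the hur scaling. Their deposited log2 difference between young large and young small oocytes was 1.34 (hur_6), 1.33 (hur_2), 1.27 (hur_4), 1.06 (hur_1), 0.7 (miRNABrightCorner30) and -0.21 (mr_1). The deposited differences of miR-652 and miR-342-3p on the same scale were 2.48 and 2.04.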

How the results depend on the processing

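For miR-342-3p in ageing, 16 of 22 alternatives kept direction and call. The log2 change lost the call at 0.10 with the total signal, 0.35 with the percentile of every entry, 0.29 with quantile normalization, 0.13 with hur entries and 0.045 with the series table and turned to -0.24 without scaling. With each array left out it was 0.50 to 0.54 (limma, adjusted p from 0.00704 to 0.042). miR-652 in ageing turned to -0.53 without scaling, -0.20 with the total signal, -0.13 with quantile normalization and -0.17 with hur entries. It passed at 0.22 with only the 4 arrays compared (limma, adjusted p = 0.032), and without young small array 2 (limma, adjusted p = 0.0278), within 0.19 to 0.25 over the arrays left out. For growth, miR-342-3p was at 2.04 without scaling, 0.94 with the total signal, 1.01 with the percentile of every entry, 0.56 with the median, 0.44 with quantile normalization, 0.80 with hur entries, 0.46 with a pseudocount of 1 and 0 with the series table. miR-652 was at 2.48, 1.38 and 1.45 under the first 3 of these, 1.23 with hur entries and 0.0042 with the series table. Left-out arrays gave 0.49 to 0.52 and 0.83 to 1.07. The series table holds both members at 0 in small oocytes. Detection on all 6 arrays leaves out miR-342-3p. The count of 29 in ageing was 58 without scaling, 6 with the percentile of every entry, 12 with no filter and 16 to 30 with an array left out (16 when young small array 1 was left out, 19 for young small array 2 and 19 for young large array 1). The count of 35 in growth was 84, 17 and 1 under those settings, 23 with hur entries, 22 with the series table and 13 to 36 with an array left out (13 without young small array 1). Where not stated, the cause was not tested. With the replicate number as a block the ageing count was 16 and the growth count 26, miR-342-3p kept its ageing call (limma, adjusted p = 0.0111) and miR-652 did not pass (limma, adjusted p = 0.195). Same-numbered arrays deviated with r of 0.15, -0.16 and 0.03 between groups, so the numbers are not taken to pair the samples.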
